A study of Bos taurus with 8 samples.

Results

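The miR-200 and miR-141 family was followed in rumen fluid, as the 5 mature bovine miRNAs bta-miR-200a, bta-miR-200b, bta-miR-200c, bta-miR-141 and bta-miR-429. They were taken by name from the read count tables, and all 5 had reads in every library. They are 5 of the 377 miRNA entries that reached 10 reads in at least 1 library, and of the 565 entries listed in any library. Rumen fluid came from 4 adult, non-lactating, ruminally cannulated Holstein cows. Each cow was sampled on a baseline diet of forage with 0% concentrate and again on the first day of a high-grain (HG) diet with 65% concentrate, and its small RNA was sequenced, so that each diet had 4 libraries, 1 per cow. The concentrate was raised in steps, free fluid was drawn from the ventral sac, and forage always came first, so diet and order of sampling cannot be told apart. The question of the comparison was whether the change of diet altered the miRNAs found in the fluid.

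MicroRNAs are short RNAs that guide the silencing complex to messenger RNAs, mainly through the seed, the bases near their 5′ end. The miR-200 family is known for its high expression in epithelial cells, where it holds back the transcription factors ZEB1 and ZEB2, which repress E-cadherin, so that the family helps to keep cells epithelial. In the family, miR-200b, miR-200c and miR-429 share one seed and miR-200a and miR-141 share another that differs in a single base. The rumen wall is lined by a stratified squamous epithelium that sheds cells into the lumen. In rumen fluid, fewer cells of a type and less miRNA per cell cannot be told apart.

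The members lie in 2 genomic clusters, and all coordinates are those of the deposited tables for the bovine genome UMD3.1. On chromosome 16, minus strand, the mature miRNAs are bta-miR-200b from 52522029 to 52522049, bta-miR-200a from 52521375 to 52521397 and bta-miR-429 from 52520140 to 52520161. The starts of bta-miR-200b and bta-miR-200a are 654 bases apart, and those of bta-miR-200a and bta-miR-429 are 1235 apart. On chromosome 5, minus strand, bta-miR-200c lies from 103859476 to 103859498 and bta-miR-141 from 103859062 to 103859083, with starts 414 bases apart. According to RefSeq genes on ARS-UCD2.0, consulted for neighbours alone, the chromosome 16 genes MIR200B, MIR200A and MIR429 lie inside no other gene, between the coding genes TTLL10 and C16H1orf159. The chromosome 5 genes MIR200C and MIR141 lie inside the long non-coding RNA gene LOC112446758, between PHB2 and PTPN6.

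The libraries held 300116 to 522804 miRNA reads, which were 6.67% to 29.3% of all reads of a library. HG replicate 2 stood apart from the rest. Over 78 bovine entries that share no reads, the chi-square statistic per degree of freedom was 23.7 to 28.7 for its pairs with other libraries and 0.993 to 2.40 for the pairs among the other 7. Among these 7, 4 of 9 pairs within a diet did not differ beyond counting noise (chi-square test, p = 0.0789 to 0.495), namely forage replicates 1, 3 and 4 with each other and HG replicates 1 and 3. Between the diets it was 3 of 12 pairs (chi-square test, p = 0.0764 to 0.201), namely forage replicate 1 with HG replicate 1 and forage replicate 4 with HG replicates 1 and 3. Within each set of like libraries of 1 diet the miRNA shares of all reads differed (forage 29.3%, 17.4% and 6.67%, HG 9.69% and 27.8%), and they were kept as separate samples, with the test repeated after each set was summed to 1 library. Values that rest on HG replicate 2 are given with and without it. Nothing in the labels says that library preparations were independent beyond the animals, so the p-values for diet and cow given below measure the spread between these samples. Those of the chi-square tests above are set against counting noise alone.

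The family as a whole took 1.11% to 1.17% of the miRNA reads in 7 libraries and 1.41% in HG replicate 2. In percent of miRNA reads, the 4 forage libraries were at 1.13, 1.11, 1.15 and 1.15 and the HG libraries at 1.15, 1.41, 1.17 and 1.11, in the order of replicates 1 to 4. Means were 1.14% ± 0.0209 (SD, n = 4) on forage and 1.21% ± 0.135 (SD, n = 4) on HG, or 1.14% ± 0.0347 (SD, n = 3) on HG without replicate 2. Apart from HG replicate 2, the libraries of both diets overlapped. As a share of all reads the order of the means turned, with 0.197% ± 0.104 on forage and 0.163% ± 0.109 on HG (SD, n = 4), or 0.177% ± 0.129 on HG without replicate 2 (SD, n = 3). The 95% Wilson interval of HG replicate 2 was 1.37% to 1.45%, and the highest upper bound among the others was 1.21%. Such intervals hold the counting error alone, because PCR copies of a molecule are not separate molecules.

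Among the members, bta-miR-200c of the chromosome 5 cluster had the most reads (11755 over the 8 libraries, rank 45 of 268 bovine entries). Its level in RPM, reads scaled to 1000000 miRNA reads of the library, was 3481, 3634, 3679 and 3583 in forage replicates 1 to 4 and 3695, 3796, 3851 and 3551 in HG replicates 1 to 4. The groups overlapped, and HG replicate 2 lay inside the range of the HG libraries. Bta-miR-200a, the middle member of the chromosome 16 cluster, had 10480 reads (rank 50), with 3185, 2928, 3103 and 3194 RPM on forage and 3179, 4563, 3153 and 3040 RPM on HG. Here 7 libraries lay between 2928 and 3194 RPM, and HG replicate 2 was above all of them. Bta-miR-200b, its neighbour, had 6681 reads (rank 60), with 2161, 2006, 2120 and 2148 RPM on forage and 2189, 1892, 2065 and 2020 RPM on HG. In this case HG replicate 2 was the lowest library on the RPM scale.

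Bta-miR-141, which neighbours bta-miR-200c, had 5329 reads (rank 72). It was at 1427, 1584, 1680 and 1633 RPM on forage and at 1336, 2597, 1671 and 1446 RPM on HG. HG replicate 2 was again the highest, and replicate 1 was the lowest of both diets. Bta-miR-429 had the fewest reads (3265, rank 88), with 1024, 949, 945 and 973 RPM on forage and 1073, 1208, 1006 and 999.7 RPM on HG. Its highest library was HG replicate 2, followed by HG replicate 1.

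**Figure D1:**
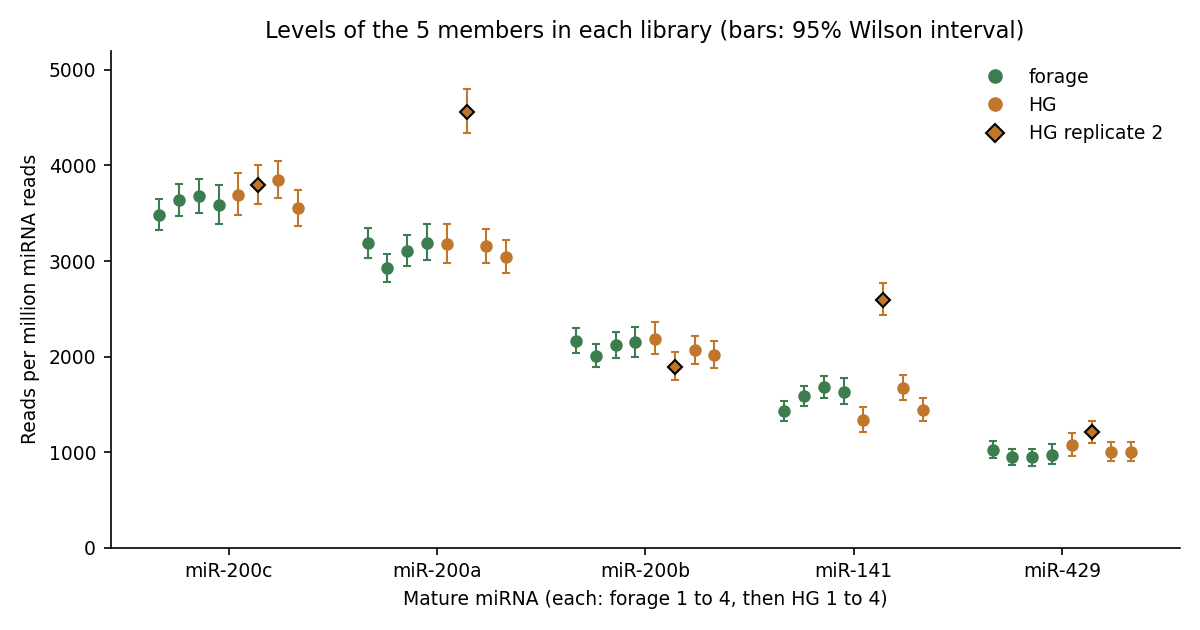
Level of each member in RPM of miRNA reads in each of the 8 libraries, with forage in green, HG in orange and HG replicate 2 as a diamond. Bars are 95% Wilson intervals. In 7 libraries bta-miR-200a lay between 2928 and 3194, and HG replicate 2 was at 4563.

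In 7 of the 8 libraries the order was bta-miR-200c, bta-miR-200a, bta-miR-200b, bta-miR-141 and bta-miR-429, and over these 7 no pair of neighbours in the order overlapped. The closest neighbours were bta-miR-200c and bta-miR-200a, with a ratio of 1.09 to 1.24. Bta-miR-200b was 1.24 to 1.64 times bta-miR-141. In HG replicate 2 both of these pairs changed places, with ratios of 0.832 and 0.729, so that bta-miR-200a led and bta-miR-200b fell behind bta-miR-141. Reads of different miRNAs also depend on how well each is captured in a library, so the order is one of reads. It also rests on undivided reads, since bta-miR-141 shares all its reads with a human homologue entry. With reads divided among entries, bta-miR-141 lay below bta-miR-429 in every library but HG replicate 2. There it had 436.5 divided reads, beside 406 of bta-miR-429 and 636 of bta-miR-200b, so that bta-miR-200b stayed ahead of it. With exact tests over 4 cows, the smallest two-sided p that a pair of members could reach is 0.125, and none was run.

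The spread without HG replicate 2 is described here beside the spread that counting error alone would give, and no test was made. The coefficient of variation over the 7 libraries was 3.29% for bta-miR-200c, 3.14% for bta-miR-200a, 3.41% for bta-miR-200b and 4.52% for bta-miR-429. Counting error alone corresponds to 2.63%, 2.84%, 3.46% and 5.03%, respectively. For bta-miR-141 the values were 8.82% and 4.04%.

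The members did not share reads with each other. For bta-miR-200a, bta-miR-200b, bta-miR-200c and bta-miR-429 the reads divided among entries equalled the undivided reads in every library. Bta-miR-141 shared all its reads with hsa-miR-141-3p, a human homologue entry at the same locus, and with no other entry. Of 13 further names of the family searched, which cover passenger strands and human homologues, hsa-miR-141-3p was the 1 with reads. The number of distinct read sequences per library was 24 to 30 for bta-miR-200c, 17 to 33 for bta-miR-200a, 12 to 19 for bta-miR-200b, 12 to 20 for bta-miR-141 and 11 to 17 for bta-miR-429. Per 1000 reads this came to 18.5, 17.4, 17.5, 25.3 and 34.3, where 11 other bovine entries of like total reads and no shared reads had a median of 29.1 and a range of 17.2 to 45.5. In HG replicate 2, the extra reads of bta-miR-200a and bta-miR-141 came with 19 and 16 distinct sequences, inside the range of the other libraries for both, so that the number per 1000 reads was the lowest of the 8 libraries for both (12.4 and 18.3). The same held for bta-miR-429, at 29.6 per 1000 reads.

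The 2 diets were compared in edgeR by the quasi-likelihood test, in a model of cow and diet, and p-values were adjusted over the 377 entries after Benjamini and Hochberg. None of the 5 members was called at an adjusted p under 0.05, and neither was any other entry (0 of 377, 0%). At an unadjusted p under 0.05 it was 0 of 5 members against 9 of 377 entries (2.39%), or 3 of 377 with DESeq2. The libraries of both diets overlapped for all 5 members on the TMM-normalized scale, whereas they did not overlap for 17 of 377 entries (4.51%). The log2 fold changes of HG over forage were above 0 for the 5 members and for 55.7% of all entries, with medians of 0.16 and 0.03. That of bta-miR-200b was 0.0016 and turned negative with DESeq2, with no filter and with divided reads.

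Bta-miR-200a had a log2 fold change of 0.20 (standard error 0.16, edgeR adjusted p = 0.788), from 3103 ± 123 to 3484 ± 722 RPM (SD, n = 4), and was higher on HG in 2 of 4 cows in RPM and 3 of 4 after TMM. The cow of replicate 2 had a log2 difference of 0.64 in RPM, and the other cows −0.07 to 0.02. Bta-miR-429 had 0.19 (standard error 0.11, edgeR adjusted p = 0.788), from 973 ± 36.4 to 1072 ± 96.7 RPM, and was higher on HG in 4 of 4 cows. Bta-miR-141 had 0.16 (standard error 0.19, edgeR adjusted p = 0.830), from 1581 ± 110 to 1762 ± 574 RPM, and was higher in 1 of 4 cows, the cow of replicate 2. Bta-miR-200c went from 3594 ± 85.4 to 3723 ± 132 RPM, with a log2 fold change of 0.10 (standard error 0.06, edgeR adjusted p = 0.788), and was higher in 3 of 4 cows. Bta-miR-200b was at 2109 ± 70.5 and 2042 ± 123 RPM, with 0.00 (standard error 0.06, edgeR adjusted p = 0.996), and was higher in 1 of 4 cows in RPM and 2 of 4 after TMM.

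Leaving out both libraries of replicate 2 brought 4 of the 5 changes nearer to 0, while that of bta-miR-200b moved below 0. They were 0.05 for bta-miR-200c, −0.01 for bta-miR-200a, −0.03 for bta-miR-200b, −0.09 for bta-miR-141 and 0.07 for bta-miR-429, with standard errors of 0.03 to 0.06 and edgeR adjusted p-values of 0.726 to 0.991. Bta-miR-200a, bta-miR-200b and bta-miR-141 thus changed sign. The HG means of the 3 other libraries were 3699 ± 150 RPM for bta-miR-200c, 3124 ± 73.5 RPM for bta-miR-200a, 2091 ± 87.5 RPM for bta-miR-200b, 1484 ± 171 RPM for bta-miR-141 and 1026 ± 40.6 RPM for bta-miR-429 (SD, n = 3). In this fit bta-miR-141 was lower on HG in 3 of 3 cows, and bta-miR-429 was higher in 3 of 3. In a further fit, chosen after seeing the data, like libraries of different cows were summed and counted once, the cow term was dropped and HG replicate 2 was kept as 1 of 3 HG libraries. No member was called there, and the log2 fold changes were 0.10 for bta-miR-200c, 0.31 for bta-miR-200a, 0.01 for bta-miR-200b, 0.32 for bta-miR-141 and 0.23 for bta-miR-429. A call was made for 0 of 5 members under all 10 alternatives.

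**Figure D2:**
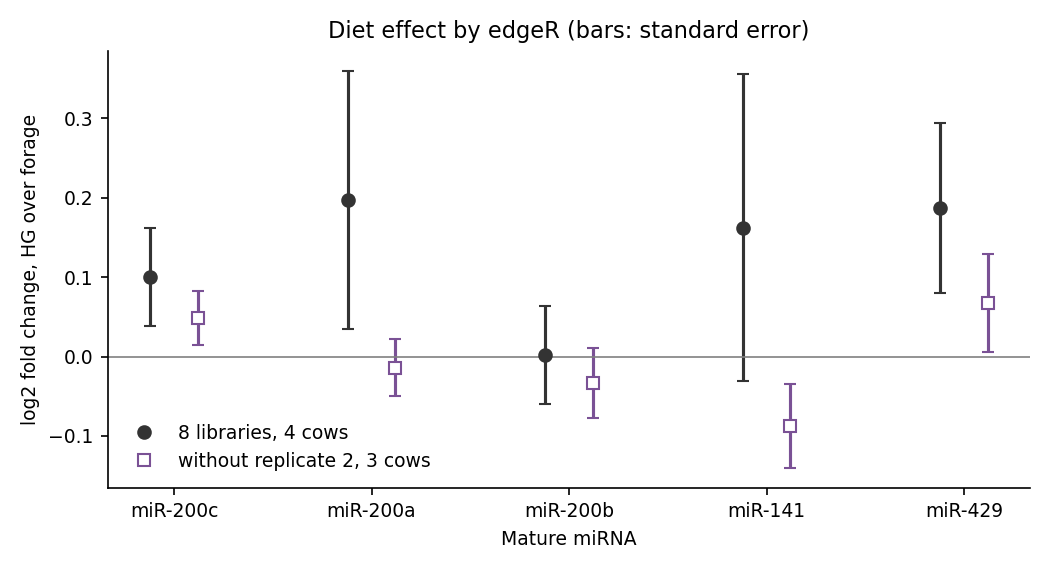
Log2 fold change of HG over forage for each member by edgeR, for all 8 libraries (filled circles) and without replicate 2 (open squares), with standard errors as bars. Bta-miR-141 went from 0.16 to −0.09 when replicate 2 was left out.

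The cow term of the same model called none of the members and 0 of 377 entries (0%), with the smallest edgeR adjusted p at 0.901 and 9 entries at an unadjusted p under 0.05 (6 with DESeq2). Without replicate 2, bta-miR-141 had the smallest cow p of the members (unadjusted 0.00339, edgeR adjusted p = 0.213). Its levels were then lowest in replicate 1 on both diets (1427 and 1336 RPM) and highest in replicate 3 (1680 and 1671 RPM). The other 4 members had adjusted p-values of 0.719 to 0.976 in that fit. These values rest on equal replicate numbers being the same cow.

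HG replicate 2 differed from the other 7 libraries in some members more than in others, and the size of the difference depended on the scale. Relative to the mean of the other libraries, bta-miR-141 was 1.69-fold higher in RPM and bta-miR-200a 1.47-fold. Bta-miR-429 was at 1.21, bta-miR-200c at 1.04 and bta-miR-200b at 0.900 times that mean. On the RPM scale the median log2 ratio of all 377 entries was −0.23 in this library, while on the TMM-normalized scale it was −0.03. After TMM normalization, the log2 ratios were 0.96 for bta-miR-141, 0.76 for bta-miR-200a, 0.48 for bta-miR-429, 0.27 for bta-miR-200c and 0.05 for bta-miR-200b. Bta-miR-200b therefore lay below the other libraries in RPM and within their range after TMM, at 1415 CPM beside 1312 to 1417. HG replicate 2 was the highest of the 8 libraries for 3 of 5 members in RPM (101 of 377 entries, 26.8%) and for 4 of 5 after TMM (134 of 377, 35.5%). This is 1 library, and no test was made.

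**Figure D3:**
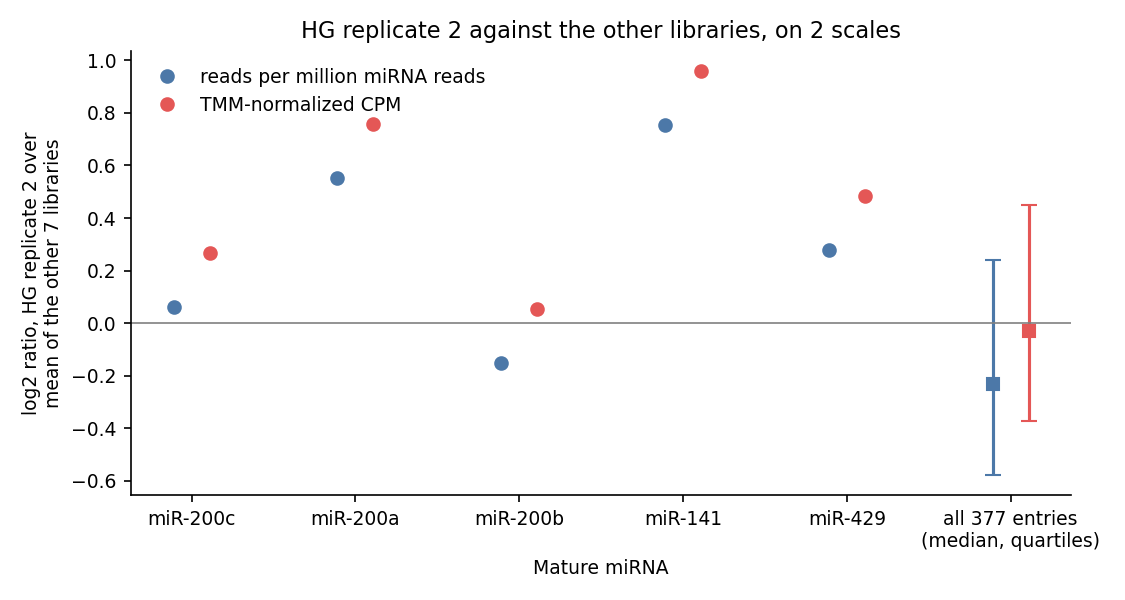
Log2 ratio of HG replicate 2 to the mean of the other 7 libraries for each member, in RPM of miRNA reads (blue) and TMM-normalized CPM (red), with the median and quartiles of all 377 entries at the right. Bta-miR-141 and bta-miR-200a lie highest on both scales, and bta-miR-200b lies lowest of the members.

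Ratios within a library need no scaling. In the 7 other libraries bta-miR-200a had 1.45 to 1.53 reads for each read of bta-miR-200b, its neighbour on chromosome 16, and in HG replicate 2 it had 2.41. Bta-miR-141 had 0.362 to 0.456 reads for each read of bta-miR-200c, its neighbour on chromosome 5, and 0.684 in HG replicate 2. In both clusters the ratio to the neighbour was thus outside the range of the other libraries in HG replicate 2.

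Bta-miR-429 over bta-miR-200b was 0.474, 0.473, 0.446 and 0.453 in forage replicates 1 to 4 and 0.490, 0.638, 0.487 and 0.495 in HG replicates 1 to 4. Every HG library lay above every forage library, also without HG replicate 2, and none of the other 7 ratios examined separated the diets in this way. This separation was noticed after the values were seen, in 1 of 8 ratios, and with 4 cows the smallest two-sided p of an exact permutation test of pairs is 0.125. Means were 0.461 ± 0.0141 on forage and 0.528 ± 0.0739 on HG (SD, n = 4), or 0.491 ± 0.0040 on HG without replicate 2 (SD, n = 3). Each value rests on 322 to 506 reads of bta-miR-429. Without HG replicate 2, the nearest libraries of the 2 diets were at 0.474 (forage replicate 1) and 0.487 (HG replicate 3). Counting error alone corresponds to 5.03% of the level of bta-miR-429 and 3.46% of that of bta-miR-200b. Whether the separation goes beyond counting error was not tested.

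The ratio between the clusters stayed inside the range of the other libraries in HG replicate 2. The reads of bta-miR-200a, bta-miR-200b and bta-miR-429 together were 1.13 to 1.298 times those of bta-miR-200c and bta-miR-141 in the 7 libraries and 1.20 times in HG replicate 2. On the log2 scale this ratio was 0.26 ± 0.09 (SD, n = 4) on forage and 0.27 ± 0.08 (SD, n = 4) on HG, or 0.27 ± 0.09 (SD, n = 3) on HG without replicate 2. Bta-miR-200a and bta-miR-141, which share a seed but lie on different chromosomes, together held 39.4% to 41.9% of the family's reads in the 7 libraries and 50.9% in HG replicate 2. The ratio of bta-miR-141 to bta-miR-200a was 0.420 to 0.541 in the 7 libraries and 0.569 in HG replicate 2. These groupings were described after the values had been seen.

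**Figure D4:**
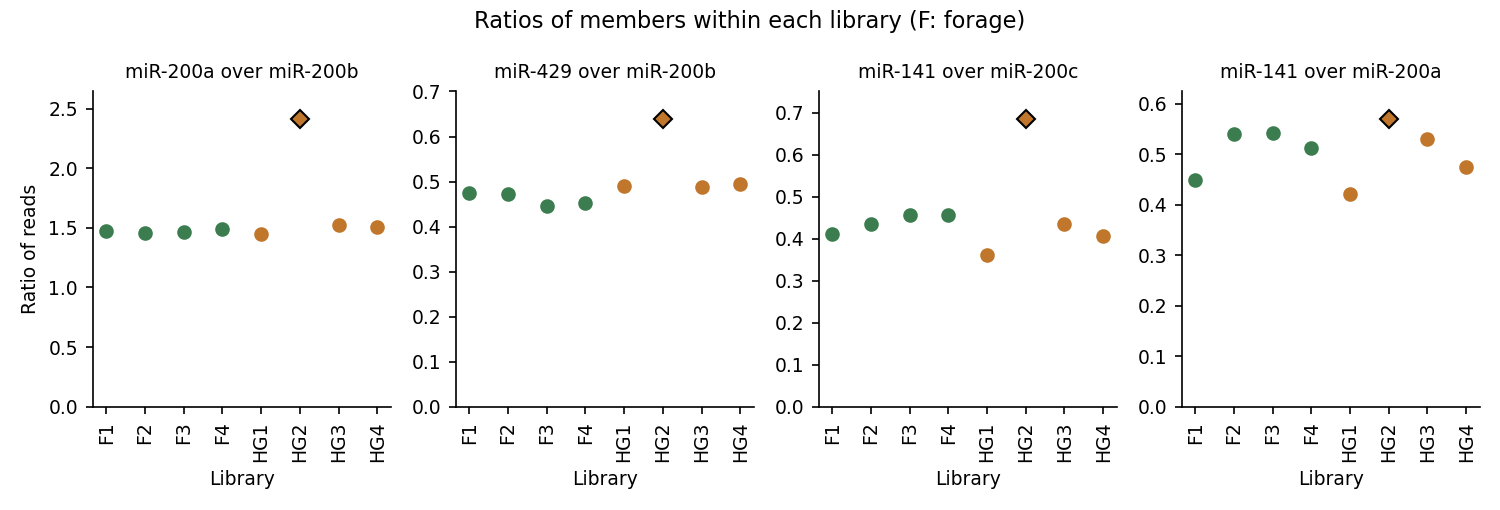
Ratio of reads between pairs of members in each library, with F for forage and a diamond for HG replicate 2. Bta-miR-200a over bta-miR-200b was 1.45 to 1.53 in 7 libraries and 2.41 in HG replicate 2.

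For the tissue sources of the fluid, summed shares of miRNA reads were computed for lists of miRNAs in use as markers. The squamous epithelium list (3 of 4 members with reads, led by bta-miR-205, a miRNA of basal keratinocytes, with 31972 reads) took 1.06% to 1.13% in the 7 libraries, close to the family's 1.11% to 1.17%. In HG replicate 2 it took 1.71%, 1.55 times the mean of the others, and the family took 1.23 times. Within the list, bta-miR-205 went from 9060 to 9715 RPM in the 7 libraries to 13898 RPM, and bta-miR-31 from 1487 to 1682 RPM to 3246 RPM. Bta-miR-184 had reads in 4 of the 8 libraries and 0 in this one, and bta-miR-203 was listed in none. The stroma and smooth muscle list (8 of 8, led by bta-miR-143) took 7.05% to 7.61% and 9.84%, respectively. In RPM, 6 of its 8 members were highest in HG replicate 2, beside 101 of all 377 entries (26.8%).

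The lists of blood cells and of glandular gut epithelium took lower shares in HG replicate 2, on a scale where the median log2 ratio of all entries was −0.23 and 49.3% of entries were lowest in this library. The erythrocyte list (3 of 3, led by bta-miR-451) took 19.8% to 20.6% in the 7 libraries and 14.98% in HG replicate 2. The leukocyte list (6 of 6, led by bta-miR-142-5p) took 2.26% to 2.33% and 1.87%, although bta-miR-142-3p and bta-miR-146a were highest in HG replicate 2. The list of glandular gut epithelium (4 of 4, led by bta-miR-192) took 0.323% to 0.353% and 0.272%. Within it, bta-miR-194 was at 857 RPM, inside the 799 to 970 RPM of the other libraries. After TMM normalization the log2 ratio of HG replicate 2 to the others was 0.15 for bta-miR-194, −0.06 for bta-miR-192, −0.34 for bta-miR-215 and −0.45 for bta-miR-375, −0.17 to −0.28 for the 3 erythrocyte members and −0.35 to 0.77 for the 6 leukocyte members, with a median of −0.03 over all entries. The miR-183 cluster, also known from epithelia and sensory cells, took 0.0607% to 0.0799% and 0.0684%. The family thus held 0.0539 to 0.0582 reads for each read of the erythrocyte list in the 7 libraries and 0.0939 in HG replicate 2. Between the diets without that library, the family's ranges overlapped, as did those of the squamous list (1.09% to 1.13% on forage, 1.09% ± 0.0251, SD, n = 3, on HG). The part of these other sources in the differences of HG replicate 2 was not tested.

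**Figure D5:**
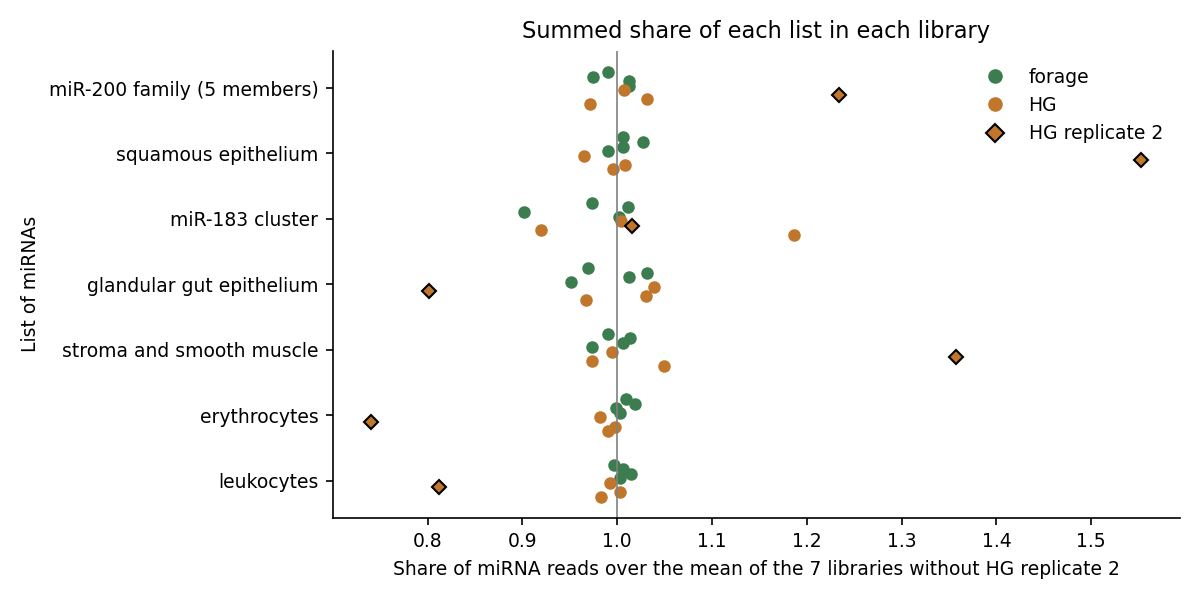
Summed share of each list in each library, divided by the mean of the 7 libraries other than HG replicate 2, with forage in green, HG in orange and HG replicate 2 as a diamond. The family was at 1.23 in HG replicate 2, the squamous epithelium list at 1.55 and the erythrocyte list at 0.741.

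The entries whose pattern was most like that of the family were sought among 216 bovine entries with at least 100 reads, by Pearson's r with the mean log2 level of the members. Over the 8 libraries the highest were bta-miR-24-3p (r = 0.993), bta-miR-30e-5p (0.990), bta-miR-27b (0.985), bta-miR-378 (0.985) and bta-miR-30a-5p (0.984). Without HG replicate 2 they were bta-miR-218 (r = 0.819), bta-miR-342 (0.782), bta-miR-192 (0.730), bta-miR-19b (0.726) and bta-let-7b (0.717), and 0 of the 5 names were shared. The members themselves correlated with the mean of the other 4 at 0.424 (bta-miR-200b) to 0.983 (bta-miR-200a) over 8 libraries, and at −0.51 (bta-miR-429) to 0.378 (bta-miR-200c) over 7. These correlations are descriptions over libraries that share their depth and scaling, and those over 8 rest on HG replicate 2.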

How the data were processed

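Small RNA of 8 rumen fluid libraries was analysed from tables of mature miRNAs. The authors demultiplexed the reads with bcl2fastq, trimmed adapters with Skewer, discarded those too short or of low base quality, and assigned the rest with sRNAbench and Bowtie to the bovine genome UMD3.1 and miRBase. The deposited counts of reads give a read in full to each entry it maps to. The deposited expected counts divide it among its entries and were rounded to whole numbers for tests. The deposited RPM (of all reads) and a deposited score, the RPM of miRNA reads, served to recover the library totals. The authors' normalized signal equalled the rounded expected counts over DESeq2 size factors, within less than 1 read, for 40 of 40 values of the members.

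Entries that reached 10 reads in any 1 library were tested with edgeR 4.0.16 (TMM, quasi-likelihood, two-sided for the diet) in R 4.3.3, with cow and diet as in the study's model, and with DESeq2 1.42.0 as an alternative. Standard errors were taken from the F statistic. The threshold was an adjusted p of 0.05. The log2 ratios of HG replicate 2 to the other libraries and the log2 levels behind the correlations used a pseudocount of 1, and the log2 ratio of the clusters used none. Tables and figures were made with Python 3.11.15, pandas 2.3.3, scipy 1.17.1 and matplotlib 3.10.9. Equal replicate numbers in the labels were taken as 1 cow, because the study sampled the same 4 cows on both diets. Deviations of equal numbers from their diet's mean correlated at −0.09, −0.10, 0.04 and 0.16, and those of different numbers at −0.31 to 0.28, so the pairing rests on the labels and design. The members, lists and alternatives were chosen with earlier results of these data known. All 5 members are named, with the family's further entries, the leading members of each list and the 5 entries most like the family. A count of 0 allows up to 3 reads. Papillae libraries were not analysed here.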

Additional observations from a re-analysis of the deposited data

Results flagged for a closer look

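In groups of 4 libraries, the gap of an extreme library to its nearest neighbour was held against Dixon's 95% critical value, for the 5 members, their sum and 8 ratios on each diet. Of 28 groups, 4 passed, all for HG replicate 2 and none on forage, where chance gives about 1 in 20 for groups fixed beforehand. The ratios were formed with HG replicate 2 known to stand apart, so the 4 cannot be read against that rate. They also overlap, since 3 hold bta-miR-200a and 3 have bta-miR-200b in the divisor. Bta-miR-200a was at 4563 RPM there and at 3040 to 3179 RPM in the other HG libraries. The ratio of bta-miR-200a to bta-miR-200b was 2.41 beside 1.45 to 1.53, and that of bta-miR-429 to bta-miR-200b was 0.638 beside 0.487 to 0.495. Bta-miR-200a and bta-miR-141 together had 1.04 times the reads of the other 3 members, beside 0.649 to 0.697.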

How the results depend on the processing

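No member was called between diets or cows under any alternative, with adjusted p-values of 0.678 to 0.999 for the diet and 0.213 to 1 for the cow over edgeR and DESeq2. Without the replicate block the diet changes were 0.10 (bta-miR-200c), 0.24 (bta-miR-200a), 0.00 (bta-miR-200b), 0.23 (bta-miR-141) and 0.20 (bta-miR-429), and the block changed no call. Without HG replicate 2 and the block they were 0.04, 0.0094, −0.015, −0.083 and 0.07, in the same order. Without replicate 2, 2 other entries were called for both diet and cow, bta-miR-2285ak-5p (edgeR adjusted p = 0.00434 for diet) and bta-miR-2285bh (the same values), whose reads lay in 1 library, and leaving out another replicate gave 0. The change of bta-miR-200b turned to −0.011 with DESeq2, −0.0076 with no filter and −0.012 with divided reads. Over the left-out replicates it was −0.034 to 0.029. That of bta-miR-200a was −0.014 to 0.284 over the left-out replicates, and that of bta-miR-141 −0.087 to 0.271. The family's share was 1.06% on forage with divided reads, since bta-miR-141 then counts in part, and the log2 ratio of the clusters was 0.50 on forage and 0.52 on HG. Of all reads, the family took 0.197% on forage and 0.163% on HG, and single libraries ran from 0.0770% to 0.331%. Of the 5 entries most like the family, 0 remained without HG replicate 2. Members had 322 to 1900 reads per library, and the counting error averaged over the 7 libraries was 2.63% (bta-miR-200c) to 5.03% (bta-miR-429) of the level.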

Other observations

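Unequal change within a cluster or hairpin in HG replicate 2 was also seen outside the family, in entries named after their values were seen. In the miR-183 cluster, bta-miR-183 was at 372 RPM in HG replicate 2 beside 200 to 301 in the other 7 libraries, while bta-miR-182 was at 303 RPM beside 384 to 464. The arms of miR-142, a miRNA of blood cells, moved apart as well. Bta-miR-142-3p was at 1238 RPM beside 966 to 1106, and bta-miR-142-5p at 8481 RPM beside 11088 to 11490. After TMM normalization all 4 of these entries kept their side of the other libraries. Bta-miR-96 of the miR-183 cluster, with 83 reads in all, was at 8.92 RPM beside 13.2 to 35.8. For miR-199a, bta-miR-199a-5p was at 919 RPM beside 427 to 500, and bta-miR-199a-3p at 5075 RPM inside 4533 to 5214. After TMM normalization both arms of miR-199a lay above the other libraries. By contrast, bta-miR-143 and bta-miR-145 were both above the other libraries on either scale, and bta-miR-451 and bta-miR-144 both below them. These are values of 1 library, with no test.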
